A study of Mus musculus with 8 samples.

Results

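Foxp3 and 9 genes that mark or serve regulatory T (Treg) cells were followed in Treg cells sorted by the level of a Bach2 reporter. The 10 genes, out of 36811 gene models with a deposited value, were taken by symbol: Foxp3, Nrp1, Gpr83, Lrrc32, Izumo1r, Nt5e, Entpd1, Adora2a, Cd81 and Swap70. All 10 passed the low-value filter and are among the 11260 models tested. Swap70 encodes an intracellular protein, so the name of surface genes covers 8 of them, with Foxp3 and Swap70 as the intracellular ones. Expression was measured by RNA sequencing in 4 Bach2-RFP LO and 4 Bach2-RFP HI libraries. Both groups were Foxp3-GFP positive Treg cells of the spleen from C57BL/6 mice 12 to 13 weeks old, all of the genotype Foxp3EGFP-DTR Bach2tdRFP/+, so every cell carried the Foxp3 reporter with its diphtheria toxin receptor and 1 reporter allele of Bach2. In each group F1 and F2 are the female and M1 and M2 the male libraries. Whether libraries of 1 label share an animal, and whether the others are separate animals, is not stated, so the p-values reflect only how much these libraries vary, which may be technical.

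Foxp3 is the forkhead transcription factor that defines the Treg lineage and holds its program in place. Several of its companions sit at the cell surface and take part in suppression or mark the lineage in mice. Entpd1 (CD39) and Nt5e (CD73) are ectoenzymes that work in sequence, turning extracellular ATP into AMP and AMP into adenosine, and Adora2a encodes the receptor through which adenosine restrains T cells. Lrrc32 (GARP) holds latent TGF-beta on the Treg surface. Bach2 is a basic leucine zipper repressor that binds DNA with small Maf proteins.

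Bach2 and T cell markers were read as a check of the labels. Bach2 had 0.447 to 0.894 FPKM in the LO libraries, against 8.62 to 20.7 FPKM in the HI libraries. The summed FPKM of 11 T cell and Treg markers lay between 11390 and 16660 in LO and between 10830 and 11980 in HI. These sums were mainly general T cell genes such as Trac, with a mean of 4798 FPKM in LO and 3315 FPKM in HI. The Treg markers among them differed in both directions. Mean FPKM in LO and HI was 251 and 101 for Ctla4, 22.1 and 10.2 for Ikzf2, and 27.7 and 75.6 for Il2ra. Relative depth, read from the steps between low values with HI F1 set to 1, was 0.819, 0.819, 1 and 5.26 in LO F1, F2, M1 and M2, and 1, 1.27, 0.638 and 0.819 in HI F1, F2, M1 and M2. The deepest library was LO M2 and the shallowest HI M1.

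Differences below are LO minus HI of mean log2(FPKM + 1), and a gene is called at a limma adjusted p below 0.05 over all tested models. By this rule 2 of the 10 genes rose in LO cells (Nrp1 and Adora2a), 1 fell (Gpr83) and 7 were not called. Over all tested models 8.29% were called, 4.65% higher and 3.64% lower in LO, and 20.9% (2354 models) had an unadjusted limma p below 0.05. In 4 of the 10 genes (Nrp1, Gpr83, Lrrc32 and Adora2a) the 4 LO and the 4 HI values did not overlap, against 15.1% of all tested models. The median log2 difference of the 10 genes was 0.17, and that of all tested models was -0.03. In whole-population RNA, fewer cells that express a gene and less RNA per cell cannot be told apart, which holds for every difference below.

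Promoters are shown for the called genes, which gives those of Nrp1 and Gpr83, as Adora2a had no promoter sequence. Both windows run from 250 bases before to 50 bases after the gene start (RefSeq, GRCm38.p6), a different build from the one named in the submitters' processing notes. The Nrp1 window is chr8:128358823-128359122 on the plus strand, and the Gpr83 window is chr9:14859960-14860259 on the plus strand. Capitals mark the letters TATAAA.
Nrp1: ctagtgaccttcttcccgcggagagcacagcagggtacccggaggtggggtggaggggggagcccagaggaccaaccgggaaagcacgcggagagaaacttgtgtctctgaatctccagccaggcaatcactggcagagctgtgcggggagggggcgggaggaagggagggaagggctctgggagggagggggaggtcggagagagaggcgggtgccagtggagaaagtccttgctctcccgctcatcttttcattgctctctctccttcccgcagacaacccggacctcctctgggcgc
Gpr83: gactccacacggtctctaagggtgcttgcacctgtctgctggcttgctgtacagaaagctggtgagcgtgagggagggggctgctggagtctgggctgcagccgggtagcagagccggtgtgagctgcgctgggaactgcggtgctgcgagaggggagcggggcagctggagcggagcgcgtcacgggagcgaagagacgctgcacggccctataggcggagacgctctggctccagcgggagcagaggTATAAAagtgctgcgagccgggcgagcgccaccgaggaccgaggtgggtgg
Of the 10 genes, 8 had a window in the table, 10 windows in all; Lrrc32 and Adora2a had none. Both strands were searched for the AP-1 site (TGANTCA), which is also the core of the Maf recognition element, for that core with its Maf flank in front, which contains the first motif, and for the E-box (CACGTG). No window of these genes held any of them. Of 32851 mouse promoter windows of the same length, the AP-1 site was in 7.81%, the core with its flank in 0.423% and the E-box in 7.15%. The TATAAA letters, searched on the forward strand and added after the sequences were seen, stood once in 1 window each of Gpr83, Cd81 and Foxp3, with its first base at positions 250, 257 and 219 of the window, and in 8.32% of all windows. No match says only that these letters are not in these windows.

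Foxp3 (ENSMUSG00000039521, chromosome X) did not differ between the populations beyond the spread between libraries. It had 15.6, 10.5, 19.8 and 13.0 FPKM in LO F1, F2, M1 and M2, against 14.4, 13.3, 14.01 and 15.2 FPKM in HI F1, F2, M1 and M2. The HI values lay inside the range of the LO values, and the LO libraries were the more spread, with an SD of 3.97 in LO and 0.783 in HI. The log2 difference was 0.01 (SE 0.245, 95% interval -0.53 to 0.56, limma adjusted p = 0.985). Both populations were sorted on Foxp3-GFP, so a level of Foxp3 in each is part of how the cells were chosen. Per transcript length it was the lowest of the 10 genes in both groups, at the 47.6th percentile of tested models in LO and the 46.8th in HI.

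A pair of annotated genes overlaps Foxp3 in RefSeq GRCm38.p6. Flicr, a long noncoding RNA known in mice as a regulator of Foxp3 expression, had 6.34, 0.448, 2.59 and 5.23 FPKM in LO F1, F2, M1 and M2, against 7.77, 8.13, 16.3 and 22.2 FPKM in HI F1, F2, M1 and M2. All 4 LO values lay below all 4 HI values, where 15.1% of all tested models had groups that did not overlap in either direction. Ccdc22, which encodes a coiled-coil protein of endosomal sorting, had 22.5 ± 8.89 FPKM in LO and 33.2 ± 4.40 FPKM in HI (SD, n = 4 each), and was not called (limma adjusted p = 0.249). Whether the counting used strand is not given in the sources used here, so reads in the stretches that Foxp3 shares with these genes may have been counted for either.

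The genes whose level followed Foxp3 most closely over the 8 libraries were Ssna1 (Pearson r = 0.912), Cic (0.911) and Dync1i2 (0.898), among 7877 candidate genes of at least 5 FPKM on average. With each group's mean subtracted they were Rbbp6 (r = 0.963), Hcfc1r1 (0.946) and Rpl31-ps8 (0.934). Each r is a description over 8 libraries picked as the highest among all candidates, with no test. Like Foxp3, Cic had its highest value in LO M1, with 39.9 FPKM there and 9.86 to 21.9 FPKM in the other 7 libraries.

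Of 29 tested genes that encode cofactors of Foxp3 or regulators of its locus, 3 rose in LO cells (Uhrf1, Ikzf3 and Gata3), 2 fell (Satb1 and Ikzf1) and 24 were not called. The median log2 difference was 0.13, and 8.29% of all tested models were called. Satb1, a chromatin organizer that acts early in Treg development, had 14.1 ± 2.58 FPKM in LO and 85.8 ± 16.7 FPKM in HI (SD, n = 4 each; limma adjusted p = 0.000258). Uhrf1, which helps copy DNA methylation at replication, had 22.7 ± 8.54 FPKM in LO and 6.77 ± 2.19 FPKM in HI (limma adjusted p = 0.0183). Ikaros, encoded by Ikzf1, and Aiolos, encoded by Ikzf3, are related zinc finger factors that moved in opposite directions, with log2 differences of -1.299 and 1.299. Gata3, a factor of type 2 helper cells that also binds with Foxp3, rose by 1.196 on the log2 scale (limma adjusted p = 0.0461). It had 541 ± 229 FPKM in LO and 222 ± 49.7 FPKM in HI. The groups overlapped, with LO M2 at 272 FPKM and HI F2 at 281 FPKM.

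**Figure D1:**
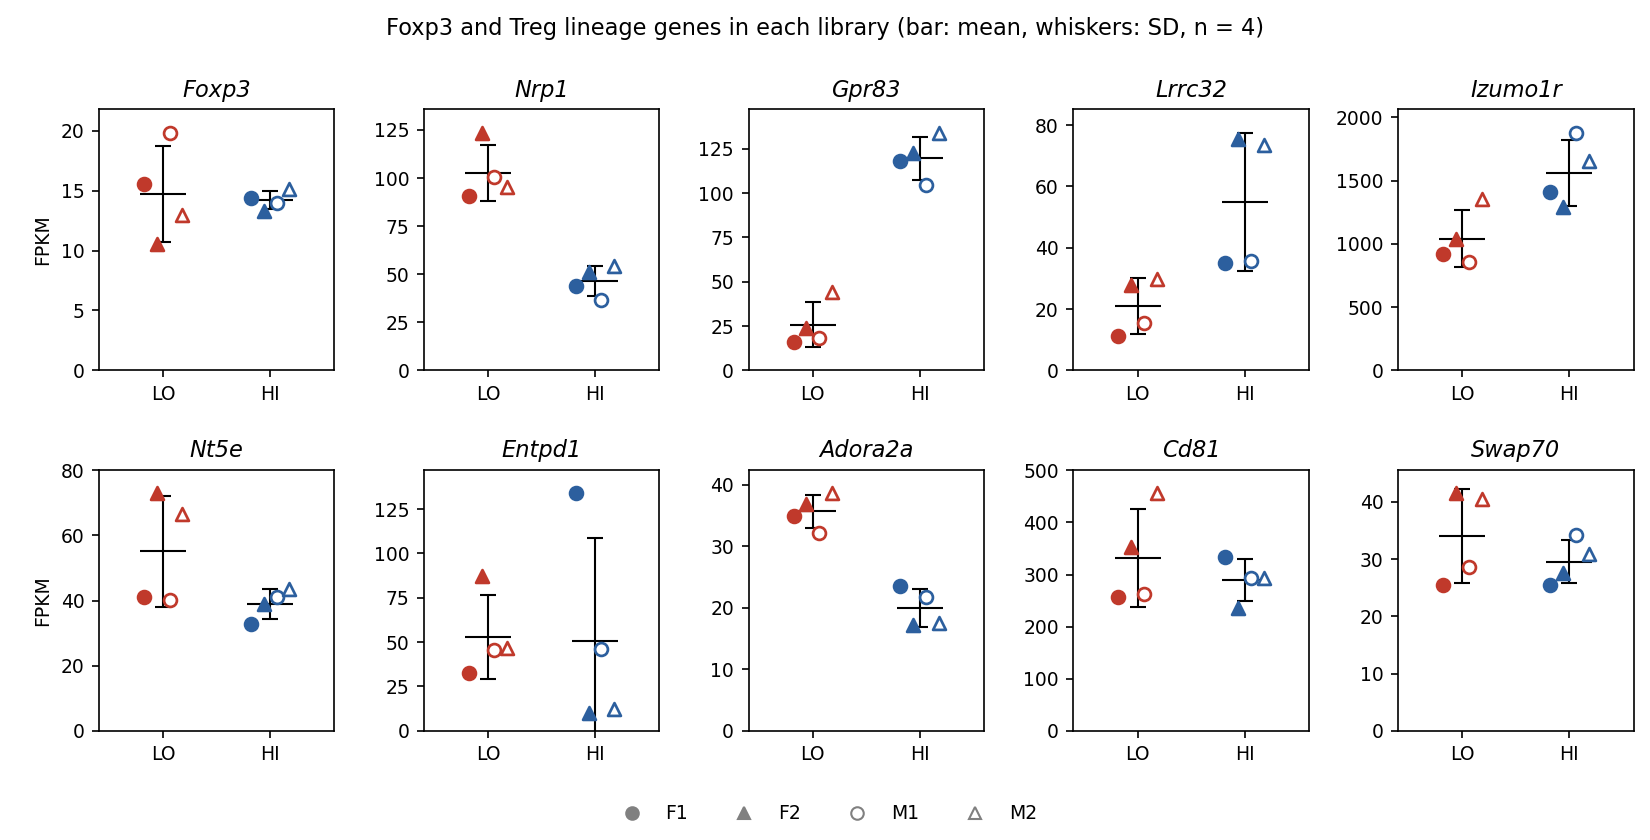
FPKM of the 10 genes in each library, LO left of HI in each panel, with the mean and SD (n = 4) and a marker for each label (F1, F2, M1, M2). The lower SD whisker of Entpd1 in HI runs below 0 and is cut at the axis. LO and HI points do not overlap for Nrp1, Gpr83, Lrrc32 and Adora2a, and Entpd1 in HI spans 10.3 to 134 FPKM.

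Among the surface receptors, Nrp1 and Gpr83 moved in opposite directions. Nrp1 (ENSMUSG00000025810, chromosome 8), neuropilin-1, is a coreceptor for semaphorins and vascular endothelial growth factor and is often used in mice to mark Treg cells of thymic origin. It had 90.5, 123, 101 and 95.6 FPKM in LO F1, F2, M1 and M2, against 43.9, 51.1, 36.5 and 54.2 FPKM in HI F1, F2, M1 and M2. Every LO library stood above every HI library. Its mean was 2.21 times as high in LO (log2 difference 1.13, SE 0.181, 95% interval 0.73 to 1.54, limma adjusted p = 0.0041). The call held in all 18 alternatives, with log2 differences of 1.02 to 1.21. Nrp1 was the third most abundant of the 10 genes in LO and the sixth in HI.

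Of 12 other tested genes of semaphorins, plexins and their partners, 1 rose and 0 fell, beside 8.29% called over all tested models. In this list 3 had an unadjusted limma p below 0.05, beside 20.9% of all tested models, with a median log2 difference of 0.15. The riser was Crmp1, a collapsin response mediator that carries semaphorin signals in neurons, with 33.6 ± 6.34 FPKM in LO and 8.198 ± 1.54 FPKM in HI (SD, n = 4 each; limma adjusted p = 0.00114). Sema4d had 123 ± 13.9 FPKM in LO and 86.96 ± 8.73 FPKM in HI (limma adjusted p = 0.0816). Sema4a, a ligand of Nrp1 on Treg cells in mice, had 16.9 ± 7.67 FPKM in LO and 36.0 ± 11.7 FPKM in HI and was not called (limma adjusted p = 0.137). The other neuropilin gene, Nrp2, was listed at 0 in the 4 LO libraries and at 0 in 3 HI libraries, with 0.305 FPKM in HI F2. Plexins A2 and A4, Sema3a and Vegfa were listed at 0 in all 8 libraries.

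Gpr83 (ENSMUSG00000031932, chromosome 9), a G protein-coupled receptor enriched in Treg cells of mice, fell. It had 16.2, 24.1, 18.2 and 44.0 FPKM in LO F1, F2, M1 and M2, against 118, 122, 105 and 134 FPKM in HI F1, F2, M1 and M2. The highest LO value, in LO M2, was still far below the lowest HI value, in HI M1. The LO mean was 0.214 times the HI mean (log2 difference -2.28, SE 0.286, 95% interval -2.92 to -1.64, limma adjusted p = 0.00122). The call held in all 18 alternatives, with log2 differences of -2.63 to -2.11. Gpr83 stood at the 60.8th percentile of tested models in LO and at the 88.6th in HI.

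Izumo1r (ENSMUSG00000031933, chromosome 9) encodes folate receptor 4, a surface protein of Treg and anergic T cells that in the egg is the receptor for the sperm protein Izumo1. It was the most abundant of the 10 genes in both populations. It had 918, 1041, 855 and 1355 FPKM in LO F1, F2, M1 and M2, against 1411, 1291, 1877 and 1655 FPKM in HI F1, F2, M1 and M2. LO M2 lay above HI F2, so the groups overlapped by that library. The log2 difference was -0.59 (SE 0.178, 95% interval -0.99 to -0.19, limma adjusted p = 0.0797), which did not pass. Without LO M2 it was -0.72 (limma adjusted p = 0.0255), and under quantile normalization it was -0.21 (limma adjusted p = 0.645).

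Izumo1r is also used with Nt5e as a mark of anergic T cells. Of 16 tested anergy genes, 3 rose in LO cells, among them Rnf128 and Pdcd1, 1 fell (Ikzf1, which is also among the cofactors above) and 12 were not called. The median log2 difference was 0.02, and 8.29% of all tested models were called. Rnf128, the ubiquitin ligase GRAIL, had 16.4 ± 3.93 FPKM in LO and 0.785 ± 1.12 FPKM in HI (SD, n = 4 each; limma adjusted p = 0.00127). Pdcd1, the inhibitory receptor PD-1, had 178 ± 92.1 FPKM in LO and 43.7 ± 8.48 FPKM in HI (limma adjusted p = 0.00541). Izumo1r and Nt5e were themselves not called.

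Lrrc32 (ENSMUSG00000090958, chromosome 7) had 11.3, 27.8, 15.5 and 29.8 FPKM in LO F1, F2, M1 and M2, against 35.0, 75.4, 35.8 and 73.4 FPKM in HI F1, F2, M1 and M2. All LO values lay below all HI values, and in both groups the libraries numbered 2 stood above those numbered 1, at 2.15 times their mean in LO and 2.1 times in HI. The log2 difference was -1.35 (SE 0.380, 95% interval -2.20 to -0.50, limma adjusted p = 0.0607), which did not pass. Among libraries numbered 1 it was -1.35 and among those numbered 2 it was -1.34. In a fit with that number as a covariate, an alternative added once the data had been seen, the same difference had a limma adjusted p of 0.00202. The labels do not say what the number marks.

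Genes of TGF-beta latency, the process Lrrc32 serves, were not called. Of 6 tested genes 0 were called in either direction by limma, 0 had an unadjusted p below 0.05, and the median log2 difference was -0.04. Over all tested models 8.29% were called and 20.9% had an unadjusted limma p below 0.05, so few calls would be looked for among 6 genes. Tgfb1, the cytokine that Lrrc32 tethers, had 8.77, 2.22, 3.63 and 2.48 FPKM in LO F1, F2, M1 and M2, against 8.04, 6.37, 5.70 and 4.96 FPKM in HI F1, F2, M1 and M2. The groups overlapped by LO F1 (limma adjusted p = 0.439). Itgav had 21.9 ± 12.0 FPKM in LO and 14.9 ± 10.2 FPKM in HI, and Itgb8, its partner in releasing active TGF-beta, 2.14 ± 1.55 FPKM in LO and 0.908 ± 0.789 FPKM in HI (SD, n = 4 each). Nrros, the myeloid counterpart of Lrrc32, had 73.3 ± 38.9 FPKM in LO and 83.1 ± 24.9 FPKM in HI (limma adjusted p = 0.729).

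**Figure D2:**
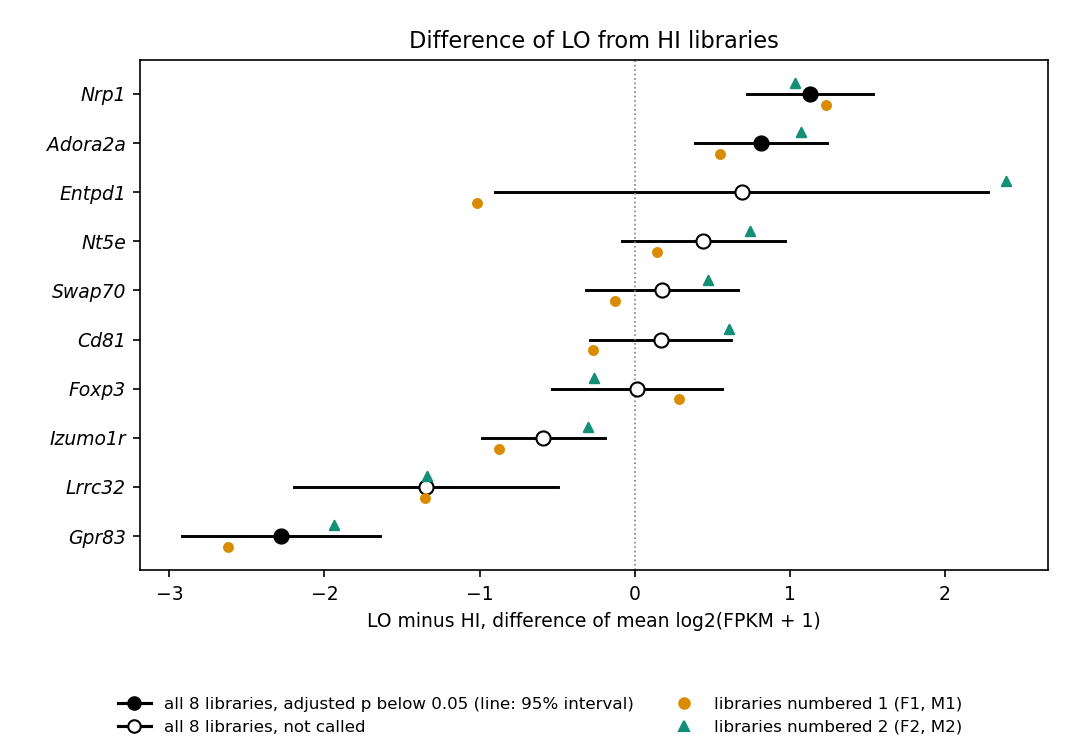
Difference of LO from HI libraries in mean log2(FPKM + 1) for each gene, with its 95% interval over all 8 libraries, and the same difference within libraries numbered 1 (circles) and numbered 2 (triangles). Filled points (Nrp1, Adora2a, Gpr83) are called. The within-number values have opposite signs for Entpd1, Swap70, Cd81 and Foxp3.

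In the adenosine branch the receptor rose and neither ectoenzyme was called. Entpd1 (ENSMUSG00000048120, chromosome 19), which removes phosphates from ATP and ADP, had 32.4, 87.2, 45.4 and 46.8 FPKM in LO F1, F2, M1 and M2, against 134, 10.3, 46.1 and 12.5 FPKM in HI F1, F2, M1 and M2. The HI libraries split by number, with both numbered 1 above both numbered 2, and HI F1 was the highest of all 8. LO and HI differed by 0.69 on the log2 scale (SE 0.711, 95% interval -0.90 to 2.28, limma adjusted p = 0.647). It was -1.02 among libraries numbered 1 and 2.40 among those numbered 2, so its sign turned with the number. Without HI F1 it was 1.39 and without HI F2 it was 0.20, neither called.

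Nt5e (ENSMUSG00000032420, chromosome 9), which converts AMP to adenosine, had 41.0, 72.9, 40.2 and 66.5 FPKM in LO F1, F2, M1 and M2, against 32.8, 38.8, 41.1 and 43.6 FPKM in HI F1, F2, M1 and M2. LO F2 and LO M2 stood above every HI library, while LO F1 and LO M1 lay within the HI range. Nt5e had a log2 difference of 0.44 (SE 0.236, 95% interval -0.08 to 0.97, limma adjusted p = 0.323).

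Adora2a (ENSMUSG00000020178, chromosome 10), the adenosine receptor, had 35.0, 36.9, 32.2 and 38.6 FPKM in LO F1, F2, M1 and M2, against 23.5, 17.3, 21.7 and 17.5 FPKM in HI F1, F2, M1 and M2. Every LO library stood above every HI library. Its mean was 1.78 times as high in LO (log2 difference 0.81, SE 0.191, 95% interval 0.39 to 1.24, limma adjusted p = 0.0275). The call was lost when HI F2, HI M2, LO F1, LO F2 or LO M2 was left out, with log2 differences of 0.75 to 0.82 and limma adjusted p-values of 0.0626 to 0.0827. It was also lost with sex and library number as covariates (limma adjusted p = 0.0518).

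Adora2a was the only adenosine receptor gene with a level above trace. Adora1 and Adora2b were listed at 0 in all 8 libraries, and Adora3 at 0 in 7, with 0.209 FPKM in LO M2, the deepest. Of 22 other tested genes of adenosine and extracellular nucleotide handling, 0 rose and 0 fell by limma, beside 8.29% called over all tested models. In this list 3 had an unadjusted limma p below 0.05 (20.9% over all tested models), and the median log2 difference was -0.07. The lowest adjusted p-values were those of Enpp4, which cleaves extracellular nucleotides (0.059), Slc29a3, an intracellular nucleoside transporter (0.0709), Art2b, an ADP-ribosyltransferase of T cells (0.216), and Ada, adenosine deaminase (0.265).

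Each of these 4 genes had the lower mean in LO without passing the test. Enpp4 had 1.88 ± 1.299 FPKM in LO and 6.38 ± 1.52 FPKM in HI, and Slc29a3 had 14.1 ± 2.54 FPKM in LO and 26.0 ± 5.98 FPKM in HI (SD, n = 4 each). Art2b had 65.4 ± 23.4 FPKM in LO and 92.5 ± 7.70 FPKM in HI. Ada, which removes adenosine by deamination, had 13.9 ± 5.47 FPKM in LO and 21.2 ± 3.597 FPKM in HI. P2rx7, the ATP-gated channel, had 50.1 ± 14.5 FPKM in LO and 42.4 ± 9.88 FPKM in HI (limma adjusted p = 0.694). It and Cd38 were named after their values were seen. Cd38, which consumes NAD, had 19.5 ± 6.65 FPKM in LO and 12.6 ± 4.11 FPKM in HI (limma adjusted p = 0.331).

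**Figure D3:**
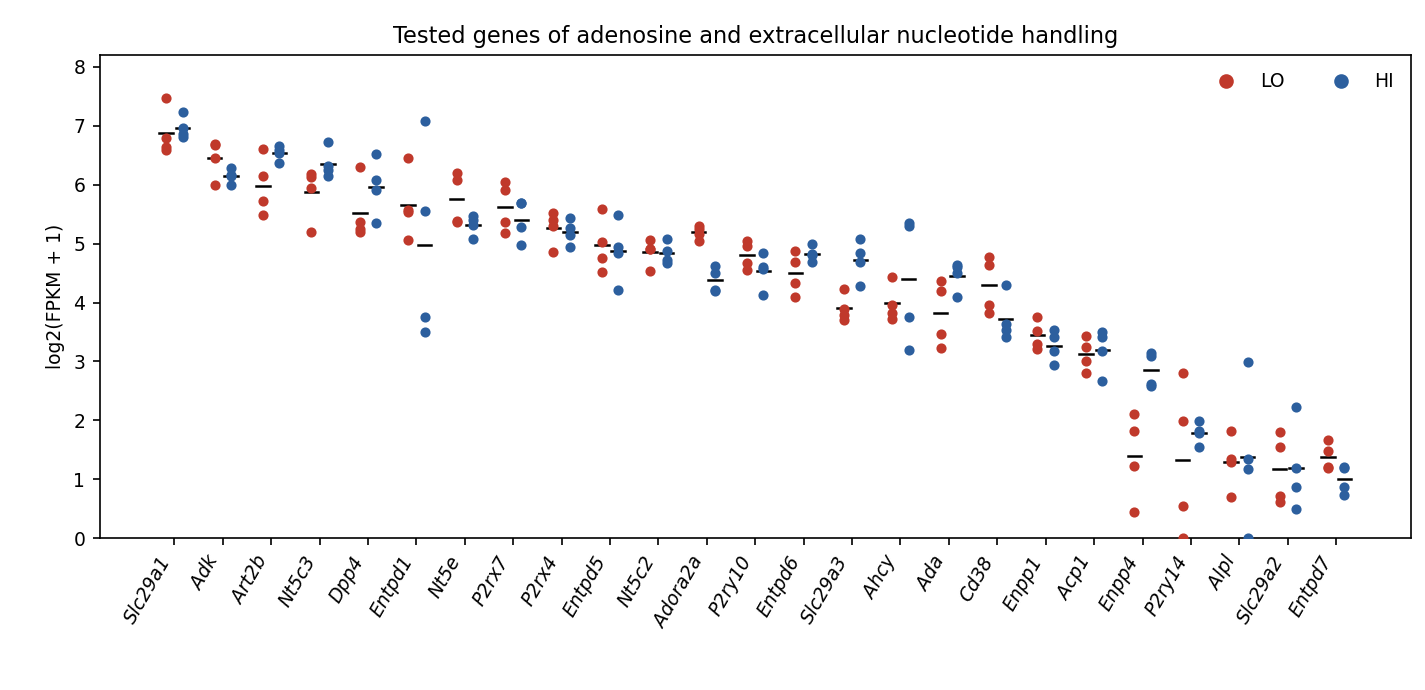
Values of log2(FPKM + 1) in each library, LO left of HI, for the 22 tested genes of adenosine and nucleotide handling with Entpd1, Nt5e and Adora2a, ordered by mean level. Short lines are group means (n = 4 each). Of the 25 genes, Adora2a is the only one called, beside 8.29% of all tested models, and Entpd1 has the widest HI spread.

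Cd81 (ENSMUSG00000037706, chromosome 7), a tetraspanin that organizes receptors in the membrane, was the second most abundant of the 10 genes. It had 256, 354, 263 and 456 FPKM in LO F1, F2, M1 and M2, against 334, 236, 293 and 294 FPKM in HI F1, F2, M1 and M2. The groups overlapped, and LO F2 and LO M2 were the highest libraries. The log2 difference was 0.17 (SE 0.204, 95% interval -0.29 to 0.62, limma adjusted p = 0.707).

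Other tetraspanins and their partners moved in both directions. Of 19 tested genes, 2 rose (Cd82 and Cd37), 3 fell, among them Cd9 and Tspan4, and 14 were not called, with a median log2 difference of -0.16. The share called over all tested models was 8.29%. Cd82 had 1234 ± 181 FPKM in LO and 502 ± 56.0 FPKM in HI (limma adjusted p = 0.000642). Cd9 had 66.9 ± 13.5 FPKM in LO and 166 ± 18.1 FPKM in HI (SD, n = 4 each; limma adjusted p = 0.0019). Tspan4 was at 0 in LO F1, F2 and M1 (limma adjusted p = 0.0487). It had 5.66 FPKM in LO M2, the deepest library, which lay above HI F1 at 3.31 FPKM, so its groups overlapped. Tspan32, the nearest protein-coding gene on one side of Cd81, had 377 ± 31.5 FPKM in LO and 425 ± 35.2 FPKM in HI and was not called (limma adjusted p = 0.48).

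Swap70 (ENSMUSG00000031015, chromosome 7), first described in B cells, binds phosphoinositides and acts on the actin cytoskeleton through Rac. It had 25.5, 41.5, 28.6 and 40.5 FPKM in LO F1, F2, M1 and M2, against 25.5, 27.6, 34.3 and 30.8 FPKM in HI F1, F2, M1 and M2. LO F2 and LO M2 stood above the HI range and the other LO libraries did not. Swap70 had a log2 difference of 0.175 (SE 0.220, 95% interval -0.32 to 0.67, limma adjusted p = 0.718). Of 15 tested genes of small GTPase and cytoskeleton signalling, 0 rose and 1 fell, beside 8.29% called over all tested models. In this list 6 were at an unadjusted limma p below 0.05 (20.9% over all tested models), with a median log2 difference of 0.07. The gene that fell was Arhgef1, a guanine nucleotide exchange factor, with 358 ± 39.5 FPKM in LO and 524 ± 73.1 FPKM in HI (SD, n = 4 each; limma adjusted p = 0.047). Def6, the closest relative of Swap70, had 204 ± 13.4 FPKM in LO and 148.2 ± 30.9 FPKM in HI and was not called (limma adjusted p = 0.137).

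Ordered by level per transcript length, Izumo1r, Cd81 and Nrp1 led in LO, each separate from the next, followed by Nt5e, Entpd1, Adora2a, Swap70, Gpr83, Lrrc32 and Foxp3, where each overlapped the next in its range. In HI the order was Izumo1r, Cd81 and Gpr83, each separate from the next, then Lrrc32, Entpd1, Nrp1, Nt5e and Swap70 with overlapping neighbours, then Adora2a and Foxp3, again separate. The order of Gpr83 and Nrp1 relative to each other was thus reversed between LO and HI. The LO mean of Nrp1 was 102.5 FPKM beside 25.6 FPKM for Gpr83, and the HI mean of Nrp1 was 46.4 FPKM beside 120 FPKM for Gpr83.

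The number in the library labels went with several of these levels. In LO, both libraries numbered 2 stood above both numbered 1 for 8 of the 10 genes, below them for Foxp3, and overlapped them for Nrp1. Over all tested models in LO, 23.4% had the numbered 2 libraries above and 17.4% below. In HI the numbered 2 libraries stood above for Nrp1, Gpr83 and Lrrc32, below for Entpd1 and Adora2a, and overlapped for the other 5, where over all tested models 14% stood above and 23.3% below. Nt5e, Cd81 and Swap70 had log2 differences between the populations of 0.14, -0.27 and -0.13 among libraries numbered 1, and of 0.745, 0.61 and 0.48 among those numbered 2. For Nrp1 and Gpr83 the within-number values kept their sign, at 1.23 and -2.625 for number 1 and 1.03 and -1.94 for number 2. LO M2, one of the LO libraries numbered 2, was also the deepest library, and the part of depth in these values was not tested.

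No difference by sex was called among the 10 genes. In a comparison of label means, female minus male, 0 of the 10 genes were called by limma and 0 had an unadjusted p below 0.05, the lowest p being 0.217 (Izumo1r), while 0.0178% of all tested models (2) were called. This comparison sets 2 label means against 2. The difference of LO from HI did not differ detectably between female and male libraries either: 0 of the 10 genes were called for the interaction by limma, 0 had an unadjusted p below 0.05, and the lowest p was 0.409 (Gpr83), with 0.0178% of all tested models (2) called.

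Other genes of the Treg signature were counted as a list. Of 19 tested, 12 rose in LO cells, 2 fell (Ecm1 and Il2ra) and 5 were not called, with a median log2 difference of 0.80. Over all tested models 4.65% were called higher and 3.64% lower in LO. Il2ra, the CD25 chain, had 27.7 ± 5.13 FPKM in LO and 75.6 ± 8.83 FPKM in HI (limma adjusted p = 0.00149). Tigit, Icos, Itgae and Klrg1 had the smallest p-values. Itgae, the CD103 integrin chain, had 123 ± 37.1 FPKM in LO and 14.7 ± 3.13 FPKM in HI (SD, n = 4 each; limma adjusted p = 0.000262). Ecm1, an extracellular matrix protein, fell as Gpr83 did, with 72.9 ± 21.4 FPKM in LO and 307 ± 46.4 FPKM in HI (limma adjusted p = 0.000899), and was named after its values were seen. The list was drawn up with results of these libraries known, so its direction is not independent evidence.

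Gene neighbourhood was read from RefSeq GRCm38.p6. Gpr83 and Izumo1r lie next to each other on chromosome 9, with no annotated gene of any kind between them, and both had lower means in LO, Gpr83 with a log2 difference of -2.28 and Izumo1r with -0.59, of which the first was called. Mre11a, the nearest protein-coding gene on the other side of Gpr83, had a log2 difference of 0.24 and Panx1, the nearest one on the other side of Izumo1r, 0.56, neither called (limma adjusted p = 0.804 and 0.305). Next to Nrp1 came Gm9204, a pseudogene, and the nearest protein-coding gene on that side was Itgb1, the integrin beta 1 chain, which had 398 ± 77.7 FPKM in LO and 70.7 ± 5.17 FPKM in HI (SD, n = 4 each; log2 difference 2.46, limma adjusted p = 7.8e-05). Pard3, the nearest protein-coding gene on the other side of Nrp1, was listed at 0 in 6 libraries, with 1.58 FPKM in LO F1 and 0.0476 FPKM in LO M2. Of the other protein-coding neighbours that were tested, none was called.

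**Figure D4:**
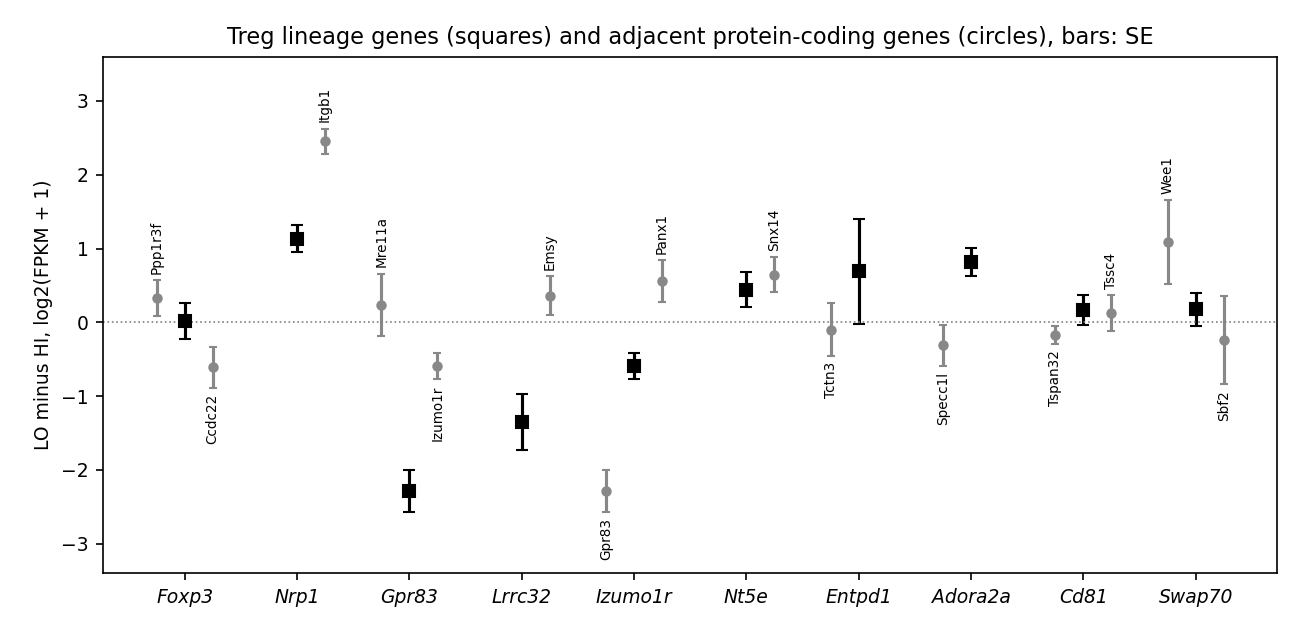
Difference of LO from HI libraries in mean log2(FPKM + 1), with SE, for the 10 genes (squares) and for the protein-coding genes next to each of them that were tested (circles). Nrp1 and its nearest protein-coding neighbour Itgb1 are both higher in LO, and Gpr83 and its neighbour Izumo1r are both below 0.

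The genes most like each of the others over the 8 libraries were picked the same way as for Foxp3, with the difference between groups included in r. For Nrp1 they were Lxn (r = 0.985), Itgb7 (0.982) and Acot7 (0.981), and for Gpr83 they included Zfp281 (0.991) and Ift80 (0.988). Ift80, a gene of intraflagellar transport, had 16.9 to 32.3 FPKM in LO and 67.2 to 102 FPKM in HI. Lrrc32 was matched best by Pisd (0.993), Fdps (0.984) and Slc44a2 (0.966), and Pisd, which makes a membrane phospholipid, had the same order by number, with 21.2, 33.5, 22.2 and 34.8 FPKM in LO F1, F2, M1 and M2, against 39.5, 58.8, 40.1 and 56.1 FPKM in HI F1, F2, M1 and M2. Adora2a was matched best by Rilpl2 (0.989), Slc4a7 (0.989) and the chemokine receptor gene Ccr8 (0.979). Ccr8 had 96.2 to 158 FPKM in LO and 17.7 to 32.5 FPKM in HI.

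For the other genes, none of them called between the populations, the closest partners were found in the same way. Entpd1 was matched best by Psph (r = 0.978), Fam92a (0.956) and Kptn (0.935), and Psph, a serine synthesis enzyme, was likewise highest in HI F1 at 80.1 FPKM and lowest in HI F2 at 40.4 FPKM. Nt5e was matched best by Abcb1a (0.974), a drug efflux pump gene, with 12.2, 287, 13.95 and 98.9 FPKM in LO F1, F2, M1 and M2, and 2.49 to 7.57 FPKM in HI. Its other matches were Os9 (0.961) and Tbc1d10c (0.955). Swap70 was matched best by Gpr108 (0.990), Pigs (0.960) and Irgm2 (0.954), Cd81 by Gpi1 (0.944), Stat3 (0.933) and Slc9a3r1 (0.931), and Izumo1r by Rassf5 (0.990), Aamp (0.990) and Adh5 (0.985).

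Markers of other cells of the spleen differed between the groups. For the counts below, the share called over all tested models was 8.29%. Of 13 tested B cell markers 5 fell in LO and 1 (Ighm) rose, and the summed FPKM of the list without Ighm and Cd79b, left out after their levels were seen, was 22.8 to 37.9 in LO and 108 to 205 in HI, with Pax5 at 0 in the 4 LO libraries and in HI M1. With those genes it was 1139 to 2055 in LO and 979 to 1187 in HI. Myeloid markers (12 tested, 0 rose, 5 fell) summed to 736 to 1006 in LO and 1035 to 1334 in HI. Of the tested myeloid markers not called, Itgam, Cst3, Cybb and Spi1 had higher means in LO, while Fcer1g, Adgre1 and Lyz2 had lower ones. Dendritic cell markers (7 tested, 0 rose, 3 fell) summed to 144 to 264 in LO and 351 to 484 in HI. Plasma cell markers (5 tested, 2 rose, 0 fell) summed to 178 to 269 in LO and 123 to 150 in HI. The risers were Prdm1 and Jchain. Of those not called, Sdc1 had the higher mean in LO, while Mzb1 and Xbp1 had lower ones. Mean FPKM of Mzb1 was 4.96 in LO and 9.66 in HI, and that of Xbp1 was 104 in LO and 112.5 in HI. Markers of CD8 T and NK cells (5 tested, 1 rose, 2 fell) summed to 176 to 314 in LO and 99.4 to 175 in HI. The largest part of each sum was Nkg7, with 146 to 285 FPKM in LO and 48.5 to 99.7 FPKM in HI. The other 4 tested markers of that list had lower means in LO. Platelet and red cell markers (4 tested, 0 called by limma, 0 at an unadjusted p below 0.05) summed to 18.9 to 360 in LO and 32.2 to 206 in HI, with Ppbp at 0 in all 8 libraries. Cd14 of monocytes was at 0 in 3 LO and 3 HI libraries, Clec9a of dendritic cells in 3 LO and 2 HI libraries, Tnfrsf17 of plasma cells in 3 LO and 4 HI libraries, and Cd8a in 2 LO and 1 HI library. Entpd1, Cd81, Nt5e and Swap70 are also expressed in B or myeloid cells, and the part of these cells in any of the results was not tested.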

How the data were processed

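Per the labels' protocols, libraries were made with SmartSeq2 from CD4-enriched, sorted spleen cells. A design text on another, single-cell experiment was left aside. The deposited values are FPKM, fragment counts per transcript length and library size, which the authors took from Cuffnorm per the name of the table, and they were used unchanged. The submitters' processing notes name FastQC, cutadapt and HISAT2, with NCBIM37 and mm9 as builds, and give no versions. Annotation, scaling, strand setting and read totals are not given in the sources used.

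Symbols came from GENCODE by Ensembl ID, on a different mouse build, and matched 31840 of 36811 IDs and 10892 of the 11260 tested. The 10 genes and 239 of 242 list entries matched. Chromosomes, neighbours and promoters come from RefSeq GRCm38.p6.

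Models were tested where at least 4 libraries had FPKM of 1 or more, as log2(FPKM + 1), with limma 3.58.1 (R 4.3.3, eBayes with trend). LO was set against HI over all 8 libraries with no covariate, and p-values were adjusted by Benjamini-Hochberg over all 11260 models, at 0.05. Fold changes on this scale understate those of low genes, and ratios in the text are of mean FPKM. Sex was compared on label means and its interaction with the reporter over 8 libraries. The fit was tested on simulated data.

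The 10 genes, lists, tests and alternatives were chosen with earlier results of these data known. From each list the rule took up to 4 genes with the smallest p, or all where 5 or fewer were tested, and up to 3 genes most like each of the 10 (predicted genes, receptor segments, small RNAs and mitochondrial genes left out). Genes named outside this rule were chosen after their values were seen. They include Gata3, Il2ra, Ecm1, Tspan4, Nrros, P2rx7, Cd38, the myeloid markers not called and genes listed at or near 0. A few genes that met it are not reported here. Alternatives changed the pseudocount (0.1), the filter (none, or FPKM of 5 or more), the scaling (quantile, upper quartile), the covariates (sex, library number, both), blocked on the label, or left out libraries.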

Additional observations from a re-analysis of the deposited data

Results flagged for a closer look

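In 140 groups of 4 libraries (the 10 genes and the list genes that were named, LO and HI separately), 4 held a library far from the other 3 by Dixon's test, where chance flags about 1 in 20. None of the 4 concerned the 10 genes. Ikzf3 had 104.2 FPKM in LO M1, against 81.96 to 82.62 FPKM in the other LO libraries. Cd82 had 1504 FPKM in LO M2, against 1123 to 1170 FPKM in the other LO libraries. Klrd1, an NK cell receptor gene, had 4.323 FPKM in LO F1 and at most 0.6518 FPKM in the other LO libraries. Hba-a1, a haemoglobin chain, had 129.6 FPKM in LO F1, against 11.22 to 29.61 FPKM in the other LO libraries.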

How the results depend on the processing

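The count of genes called between LO and HI, 934, stayed between 642 and 1032 over 18 alternatives. Nrp1 and Gpr83 stayed called in all 18. Foxp3 had a log2 difference between -0.132 and 0.152 when single libraries were left out, with a sign that turned without HI F2, LO F1 or LO M1 and a limma adjusted p of 0.819 to 0.991 over all 18. Lrrc32 passed in 3 fits with the same log2 difference of -1.345, namely with the replicate block (limma adjusted p = 0.0092), with library number (0.00202), and with sex and library number (0.00423) as covariates. Izumo1r ranged from -0.721 to -0.494 when single libraries were left out, passing without LO M2, and was -0.627 without both HI M1 and LO M2 (limma adjusted p = 0.0389). Adora2a ranged from 0.75 to 0.892 when single libraries were left out. It lost its call in 8 of 18 alternatives, among them the replicate block (0.813, limma adjusted p = 0.0784), leaving out both HI M1 and LO M2 (0.816, limma adjusted p = 0.0934), and sex and library number as covariates (0.813, limma adjusted p = 0.0518). The causes were not tested. Sex gave 1 called gene with a pseudocount of 0.1, against 2.

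The labels share F1, F2, M1 and M2 between groups. Deviations from the group means were weakly correlated between libraries of the same label (r = 0.052, 0.015, 0.07 and 0.113 for F1, F2, M1 and M2). LO F1, M1 and M2 followed their own label best, while LO F2 followed HI M2 more closely (r = 0.058). Such r cannot decide whether libraries of 1 label share an animal, so the block was used only as an alternative. It called 771 genes. Read totals are not known, so no counting error can be given.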
